A study of Sus scrofa with 36 samples.

Results

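The genes described here are 8 endothelial receptor and junction genes of the pig, PECAM1, CDH5, KDR, FLT1, TEK, TIE1, EMCN and ESAM. They were taken as a list of named endothelial genes with no threshold on their values, but with earlier results of these data known. All 8 were present among the 20683 genes of both deposited tables. The study profiled 36 bulk RNA-seq libraries of Sus scrofa cells in 11 groups. Of these, 15 libraries held pig fibroblasts (n = 4) and undifferentiated induced pluripotent stem cells (iPSCs) of clone 1 (PiPS-EP1 minusPD, n = 3), clone 2 and clone 3 (both PiPS-EP5 minusPD minusA83, n = 4 each). The other 21 libraries held 3 libraries each of 7 groups of a single clonal line, clone 8. These were undifferentiated cells freed of their feeder layer on day 0, primitive streak or mesendoderm cells made with the medium E8A100ch3 on day 1, presomitic mesoderm (PSM) cells made with S1LDN medium on day 2 and somite cells made with S2LDN medium on day 3. They also included cells labelled endothelial on day 6, beating cardiomyocytes on day 9 and neuro progenitor cells on day 24. The labels do not name the medium of the day 6, day 9 and day 24 cells, and do not say whether day 6 cells passed through the day 1 to day 3 states. All differentiated groups came from 1 clone, and no label said whether the libraries of a group were separate cultures, so the spread behind each p-value is that between libraries and could be technical only.

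Endothelial cells line blood and lymph vessels. KDR (VEGFR2) is their main signalling receptor for vascular endothelial growth factor A (VEGF-A), while FLT1 (VEGFR1) binds the same ligand tightly, signals weakly and can act as a decoy. TEK (Tie2) is the receptor for the angiopoietins, and TIE1 is its partner receptor with no ligand of its own among the classical angiopoietins. CDH5 (VE-cadherin) forms the adherens junctions between endothelial cells, PECAM1 (CD31) and ESAM are immunoglobulin-family adhesion proteins of the cell contacts, and EMCN (endomucin) is a sialomucin of the endothelial surface. KDR is also known from early mesoderm, before vessels form.

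Total counts per library ran from 1845333 to 69879325, with at most 9727315 in clone 8 and at least 24314241 in clones 1 to 3. In clone 8, 3 counts corresponded to between 0.308 and 1.63 CPM (counts scaled to a common library size), so low members were measured less closely there, and these limits cover counting error only. The library labelled cardiomyocyte replicate 2 correlated best with neural replicate 2 across genes (r = 0.9748, against at most 0.7002 within its own group). The library labelled neural replicate 1 correlated best with cardiomyocyte replicate 1 (r = 0.9883, against at most 0.6718 within its own group). The summed level of 12 cardiomyocyte markers was 105.1 TPM in the former and 20265.5 TPM in the latter, against 20634.6 and 18639.8 TPM in cardiomyocyte replicates 1 and 3. The summed level of 11 neural progenitor markers was 7167.42 and 105.7 TPM in the same libraries, against 8073.04 and 7496.23 TPM in neural replicates 2 and 3. Both libraries enter the model that all clone 8 comparisons share, so the values without them are given where a call, a count or a fold moved. Levels are TPM, the share of transcripts scaled by gene length and to a common total, and fold changes are log2 values ± SE from the edgeR quasi-likelihood test on counts. Adjusted p-values cover all genes tested, and a gene passed below 0.05.

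On day 6 all 8 genes were detected in all 3 libraries, and 6 of them were above every one of the 33 other libraries. PECAM1 stood at 280.9, 275.8 and 294.77 TPM in day 6 replicates 1, 2 and 3, the highest level of the 8 genes and the closest replicate agreement (coefficient of variation 3.46%). In no other library did it exceed 6.34 TPM. CDH5 stood at 100.22, 72.96 and 83.89 TPM, and its highest value elsewhere was 1.85 TPM. The receptor gene KDR stood at 152.67, 133.25 and 132.88 TPM and FLT1 at 30.16, 30.98 and 36.51 TPM. Unlike the 6 others, KDR and FLT1 had libraries of other groups within or above the day 6 range, 1 of 33 for KDR and 12 of 33 for FLT1. TEK stood at 45.67, 41.76 and 38.27 TPM and TIE1 at 41.33, 28.49 and 29.02 TPM, with maxima elsewhere of 8.45 and 3.73 TPM. EMCN stood at 20.08, 10.69 and 12.39 TPM and ESAM at 23.98, 17.5 and 15.79 TPM. EMCN was the most variable of the 8 between day 6 replicates (coefficient of variation 34.8%) and reached at most 0.5 TPM elsewhere.

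**Figure D1:**
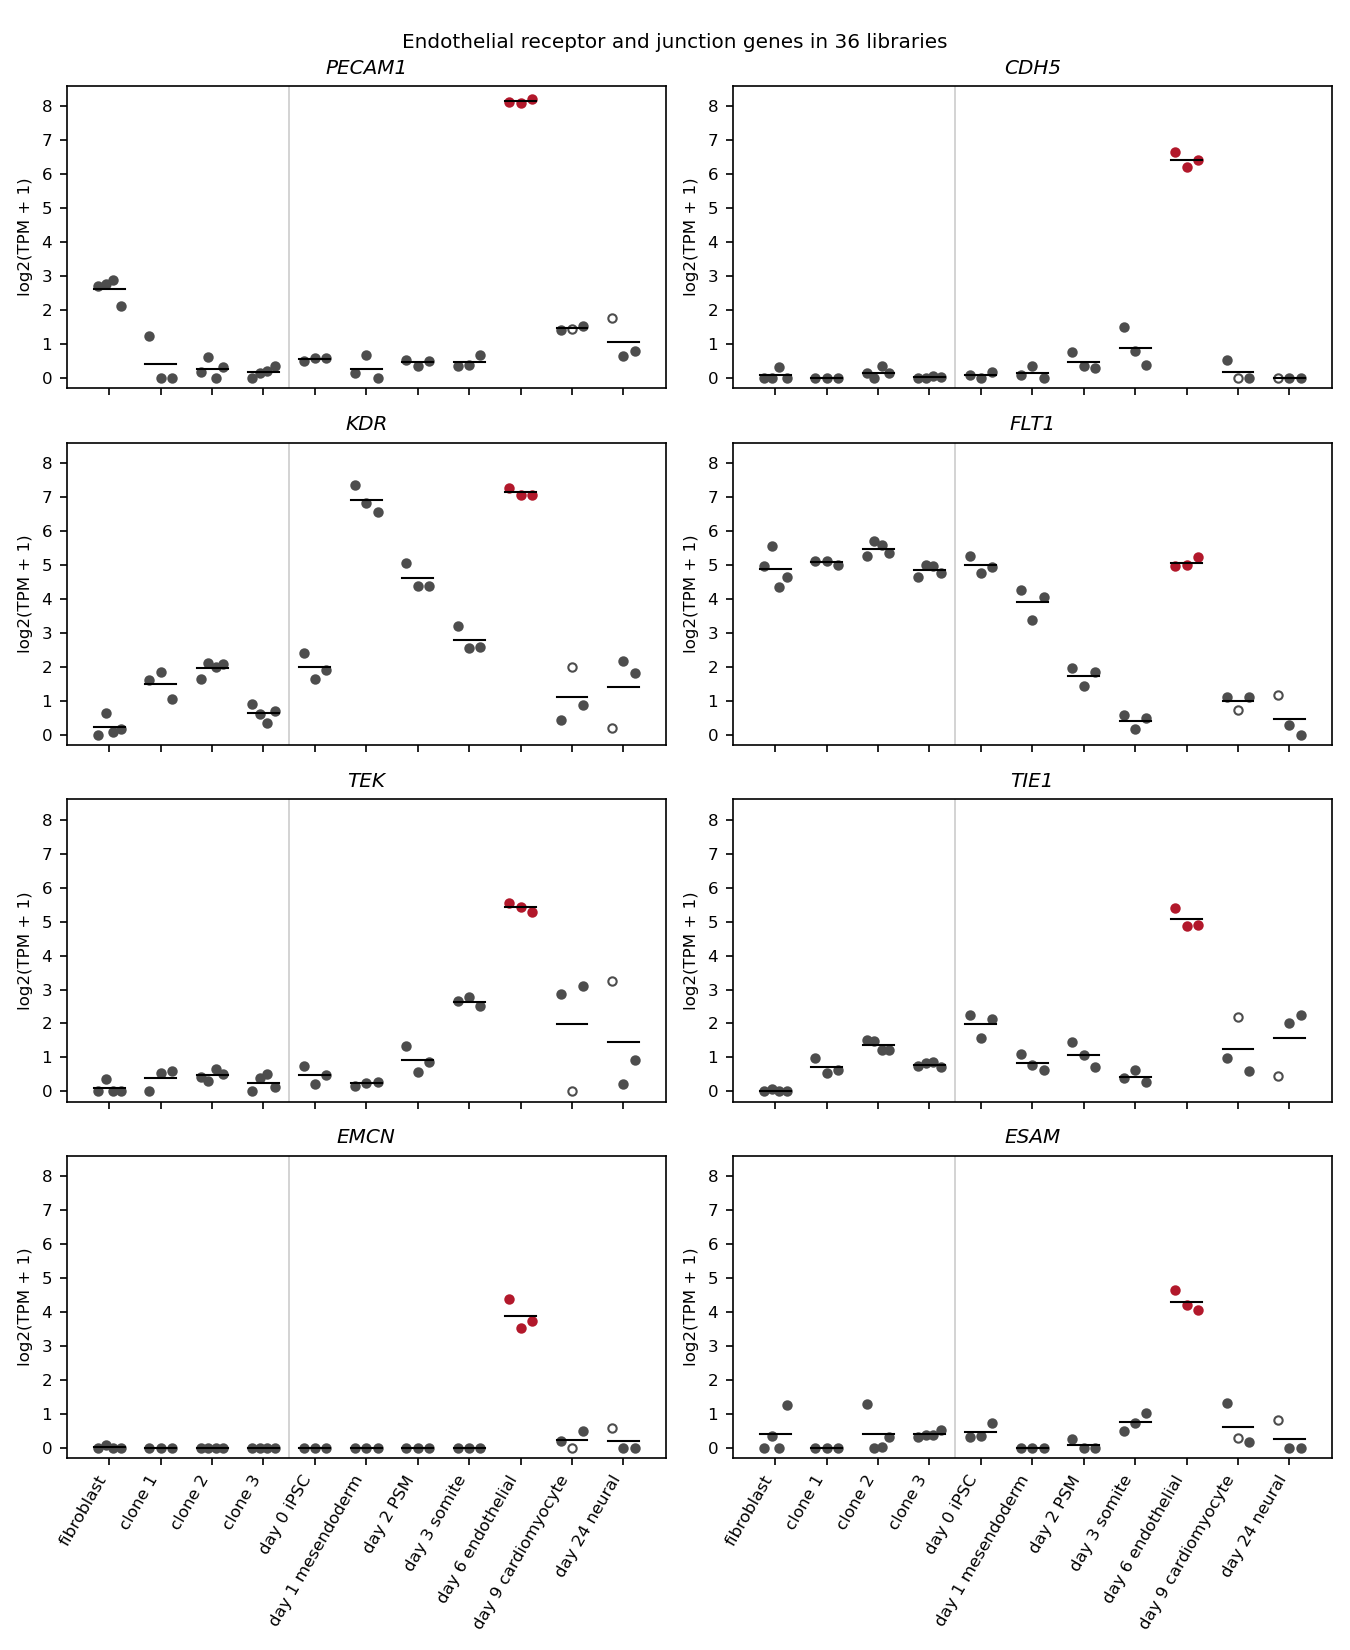
Level of each of the 8 genes, as log2(TPM + 1), in every library of the 11 groups. Points are libraries, bars are group means, red marks day 6 and open points mark the libraries labelled cardiomyocyte replicate 2 and neural replicate 1, and FLT1 is the gene whose day 6 points (30.16 to 36.51 TPM) lie among those of day 0, the clones and the fibroblasts.

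Within day 6 the order of the largest shares was the same in the 3 libraries. PECAM1 made up between 40.4% and 45.8% of the summed TPM of the 8 genes in each library, KDR between 20.6% and 22% and CDH5 between 11.9% and 14.4%. The smaller shares varied more, from 1.75% to 2.89% for EMCN, from 2.45% to 3.45% for ESAM and from 4.34% to 5.67% for FLT1. The sums were 695.01, 611.43 and 643.52 TPM, although replicate 1 had 3649335 counts and the others 9727315 and 9470551. Of the summed group means over all 11 groups, day 6 held 97.8% for CDH5, 97.5% for EMCN, 96.4% for PECAM1, 85.4% for ESAM, 72.9% for TEK and 72.6% for TIE1. It held 45.9% for KDR and 15% for FLT1. Across the 36 libraries the correlation of log2(TPM + 1) of each gene with the mean of the other 7 was 0.968 for EMCN and 0.965 for CDH5, 0.519 for KDR and 0.095 for FLT1. These correlations are descriptions, and the libraries of a group share cell line, treatment and much of their depth.

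The genes with the profile most like the mean of the 7 members other than KDR, among 11387 candidates and over 36 libraries, were TM4SF18 (r = 0.986), LAPTM5 (0.978), VGLL2 (0.977), FCGR3A (0.975) and ADGRF5 (0.974). LAPTM5, a lysosomal protein known from blood cells, stood at 40.7 ± 4.27 TPM on day 6 (SD, n = 3) and had no other group mean above 0.517 TPM. FCGR3A, an Fc receptor gene known from natural killer cells and macrophages, stood at 16.9 ± 5.43 TPM. The summed level of 12 blood cell markers was 5.85 to 6.56 TPM in the day 6 libraries, against 5.18 to 6.72 on day 0, with GATA1 and HBZ at 0 in all 3 day 6 libraries. PTPRC, which encodes the leukocyte antigen CD45, stood at 0.0133 ± 0.0231 TPM on day 6. Other markers of this list were detected on day 6, among them ITGA2B at 1.47 ± 0.375 and MYB at 1.31 ± 0.356 TPM. CD68 stood at 0.977 ± 0.797 and SPI1 at 0.963 ± 0.782 TPM. Of the 12 markers 4 had enough counts to be tested, so the presence of blood cells was not tested for most of the list.

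The main question for an endothelial differentiation is which endothelial genes rise from the pluripotent state. Between day 0 and day 6, 7 of 8 genes rose and FLT1 did not pass, where 11.6% of all 14248 tested genes rose and 7.76% fell. Without the 2 libraries that stand apart 7 of 8 passed as well, where 24.3% of all genes rose and 20.8% fell. The median log2 change of the 8 genes was 6.15, against 0.03 over all genes tested. In bulk RNA, more cells of a type and more RNA per cell cannot be told apart. PECAM1 was at 0.42, 0.5 and 0.5 TPM in the day 0 libraries and rose by 9.09 ± 0.74 (adjusted p = 3.86e-07). CDH5 was at 0.06, 0 and 0.13 TPM, and with 3 counts over all of day 0 the ratio of summed CPM was 1322 (95% counting interval 452 to 6414, adjusted p = 1.04e-05). The angiopoietin receptor TEK was at 0.68, 0.17 and 0.39 TPM on day 0 and rose by 6.76 ± 1.41 (adjusted p = 0.00273). ESAM was at 0.26, 0.27 and 0.67 TPM and rose by 5.53 ± 1.05 (adjusted p = 0.00172). These genes were near the limit of detection in iPSCs, and none of their day 0 values came near the day 6 range. EMCN had no count in any library of days 0 to 3, so day 6 was at least 127-fold higher than day 0, computed against a floor of 3 counts over the group (adjusted p = 0.00245). DESeq2 did not call EMCN in this comparison (adjusted p = 0.0636), nor in the 5 other comparisons of day 6 (0.0626 to 0.255).

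KDR, FLT1 and TIE1 were already transcribed in the iPSCs. KDR was at 4.35, 2.14 and 2.73 TPM on day 0 and was higher on day 6 by 5.54 ± 0.65 (adjusted p = 1.62e-05). TIE1 was at 3.71, 2 and 3.42 TPM on day 0 and rose by 3.35 ± 0.62 (adjusted p = 0.00104), the smallest change among the 7. FLT1 was at 37.72, 26.24 and 29.55 TPM on day 0, overlapping the day 6 range. Its log2 difference was -0.27 ± 0.54 (adjusted p = 0.781), and 0.07 in limma on log2(TPM + 1), so the sign depended on the unit. FLT1 gives rise to a membrane receptor and a soluble form, which values per gene do not separate. Summed levels of fibroblast and epithelial markers also differed between day 6 and day 0. The summed level of 9 fibroblast markers was 724.88 to 1139.06 TPM on day 6 and 157.55 to 328.97 on day 0, and that of 8 epithelial markers was 4019.46 to 5066.67 and 6814.21 to 7476.57 TPM. Most of the day 6 sums came from COL3A1 (538 ± 193 TPM) and from KRT8 (2380 ± 301 TPM) and KRT18 (1332 ± 126 TPM). As single genes, 2 of the 9 fibroblast markers rose and 2 of the 8 epithelial markers fell. The summed level of 9 pluripotency markers was 600.37 to 755.37 TPM on day 6 and 2014.55 to 2199.17 on day 0. Nearly all of the day 6 sum was LIN28A, an RNA-binding protein gene, at 596 ± 87.6 TPM (1068 ± 60.1 on day 0). The part of these genes in the result was not tested.

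KDR rose steeply on day 1, and KDR and FLT1 then fell on days 2 and 3. Between day 0 and day 1 KDR rose by 5.52 ± 0.65 (adjusted p = 2.94e-05) and was the 1 gene of the 8 to rise, where 5.53% of all genes rose. In the day 1 libraries KDR stood at 161.64, 111.53 and 93.91 TPM. These values span the day 6 range of 132.88 to 152.67 TPM, with replicate 1 above it and replicates 2 and 3 below it. The difference between day 6 and day 1 was 0.02 ± 0.53 (adjusted p = 0.99), and 0.02 ± 0.20 without the 2 libraries that stand apart. Its sign turned under DESeq2 (-0.013). In the same day 1 libraries PECAM1 stood at 0.1, 0.62 and 0 TPM, CDH5 at 0.07, 0.29 and 0 TPM, and EMCN and ESAM at 0 in all 3.

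FLT1 did not rise with KDR on day 1. It stood at 18.26, 9.35 and 15.6 TPM, below every day 0 library. The change from day 0 was -1.17 ± 0.55 and did not pass (adjusted p = 0.188), whereas without the 2 libraries that stand apart it passed (-1.17 ± 0.22, adjusted p = 0.000262). TIE1 stood at 1.16, 0.71 and 0.54 TPM, also below every day 0 library (-1.45 ± 0.61, adjusted p = 0.136, and 0.00389 without the 2 libraries). In that fit 3 of the 8 genes were lower on day 1 (19.5% of all genes), the third being ESAM (9 counts over day 0, none over day 1, adjusted p = 0.0316).

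KDR then fell on each of the next 2 days. It stood at 32.19, 19.95 and 19.76 TPM on day 2, lower than on day 1 by -2.34 ± 0.56 (adjusted p = 0.0158), and at 8.22, 4.87 and 5.04 TPM on day 3, lower again by -2.22 ± 0.56 (adjusted p = 0.00875). The libraries of days 1, 2 and 3 did not overlap. FLT1 fell with it, to 2.88, 1.68 and 2.57 TPM on day 2 (-2.22 ± 0.58, adjusted p = 0.0262) and to 0.51, 0.12 and 0.41 TPM on day 3 (-2.76 ± 0.67, adjusted p = 0.00652). KDR and FLT1 were the 2 of 8 genes that fell from day 1 to day 2, where 3.45% of all genes fell, and again the 2 of 8 that fell from day 2 to day 3, where 11.2% of all genes fell. TIE1 did not pass from day 2 to day 3 (-1.79 ± 0.69, adjusted p = 0.0697). Without the 2 libraries that stand apart TIE1 passed as lower too (-1.76 ± 0.53, adjusted p = 0.00814). Leaving out PSM replicate 2 or PSM replicate 3 left both day 2 calls above the threshold (KDR 0.0781 and 0.069, FLT1 0.119 and 0.107). The FLT1 call of day 2 was also lost without mesendoderm replicate 1 (0.0911), mesendoderm replicate 3 (0.0694) or PSM replicate 1 (0.0642). In limma on log2(TPM + 0.1) the KDR falls of day 2 and of day 3 did not pass (adjusted p = 0.0787 and 0.0718).

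TEK levels were higher on each later day. TEK stood at 0.12, 0.19 and 0.22 TPM on day 1, at 1.54, 0.49 and 0.84 TPM on day 2 and at 5.32, 5.84 and 4.66 TPM on day 3, with no overlap between these days. The steps were 2.59 ± 1.43 (adjusted p = 0.358) and 2.08 ± 1.18 (adjusted p = 0.218), and neither passed. Both passed without the 2 libraries that stand apart, at 2.61 ± 0.53 (adjusted p = 0.000709) and 2.07 ± 0.34 (adjusted p = 2.18e-05). In that fit TEK was the 1 gene of the 8 to rise from day 1 to day 2 (12.3% of all genes). It was 1 of 2 of the 8 to rise from day 2 to day 3 (25.4% of all genes), with ESAM (adjusted p = 0.0393). Both shares were near those of all genes. TIE1 stood at 0.31, 0.54 and 0.22 TPM on day 3, and CDH5 at 1.85, 0.74 and 0.3 TPM.

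**Figure D2:**
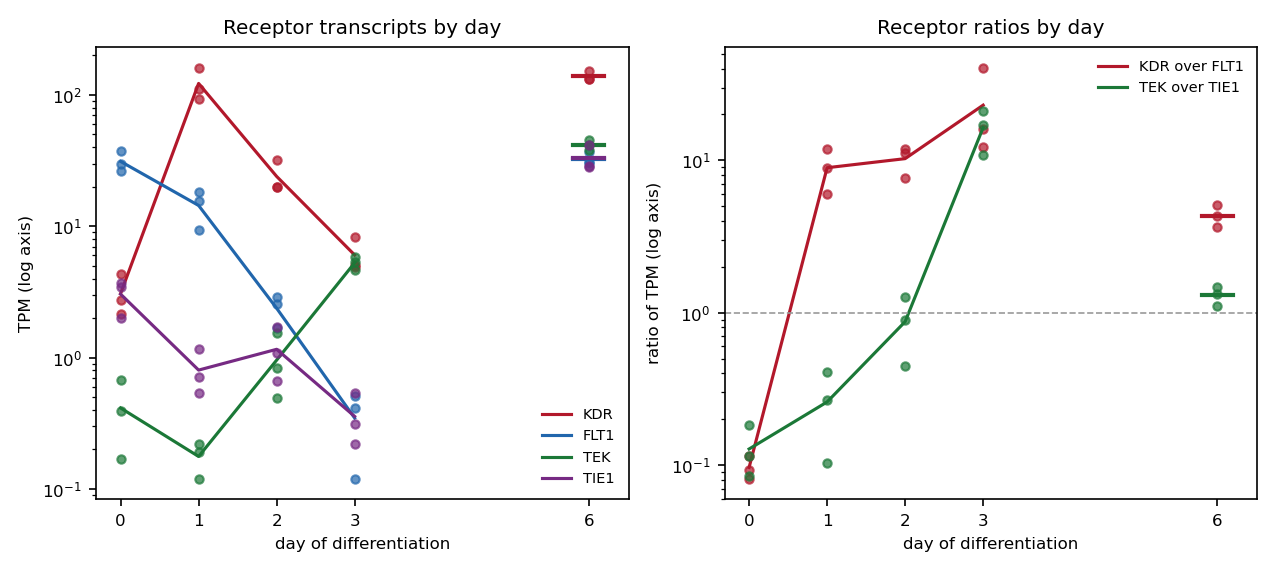
Left, TPM of KDR, FLT1, TEK and TIE1 on a log axis on days 0, 1, 2, 3 and 6; right, ratios of TPM within each library on a log axis, with a dashed line at equality. Points are libraries, lines join the means of days 0 to 3 and bars are day 6 means. The bars are not joined because the labels do not say that day 6 cells came from the day 3 state. Among days 0 to 3, KDR is highest on day 1 (93.91 to 161.64 TPM) and TEK on day 3 (4.66 to 5.84 TPM).

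The balance of KDR to FLT1 within a library turned over between day 0 and day 1. KDR was at 0.0816 to 0.115 times FLT1 on day 0, at 6.02 to 11.9 times on day 1, at 7.69 to 11.9 times on day 2 and at 12.3 to 40.6 times on day 3. On day 6 it was at 3.64 to 5.06 times FLT1, above day 0 and below each of days 1 to 3 without overlap. An exact two-sided permutation test over libraries gave p = 0.1 for each of these 4 comparisons of day 6, also after Benjamini-Hochberg adjustment, which is the smallest p that 3 libraries against 3 allow. The ratio of TEK to TIE1 was 0.085 to 0.183 on day 0, 10.8 to 21.2 on day 3 and 1.11 to 1.47 on day 6.

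Set against days 1 to 3, the day 6 cells were higher in most of the 8 genes. Against day 1, 6 of 8 passed as higher (15.3% of all genes), KDR and FLT1 being the exceptions. FLT1 was 0.90 ± 0.55 higher (adjusted p = 0.252) and passed without the 2 libraries that stand apart (0.89 ± 0.22, adjusted p = 0.00201). Against day 2, 8 of 8 were higher (10.2% of all genes), with KDR higher by 2.36 ± 0.56 (adjusted p = 0.00769) and FLT1 by 3.11 ± 0.60 (adjusted p = 0.00176). TEK was higher by 5.15 ± 1.30 (adjusted p = 0.0114), a call lost without PSM replicate 2 (0.0597) or PSM replicate 3 (0.0549). Against day 3, 7 of 8 were higher (8.32% of all genes). PECAM1 (9.64 ± 0.79), TIE1 (6.21 ± 0.74), CDH5 (6.50 ± 0.85), FLT1 (5.87 ± 0.71), ESAM (4.72 ± 1.02) and KDR (4.58 ± 0.62) were among them, with adjusted p between 6.28e-07 and 0.00536, and EMCN was at least 82-fold higher. The CDH5 difference was 7.31 without somite replicate 1. TEK was 3.06 ± 1.16 higher than in somite cells and did not pass (adjusted p = 0.0869), but passed without the 2 libraries that stand apart (3.07 ± 0.28, adjusted p = 5.83e-09), where all 8 genes were higher (21.4% of all genes), and under DESeq2 (0.0436). These comparisons share the day 6 libraries and are not independent of each other.

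**Figure D3:**
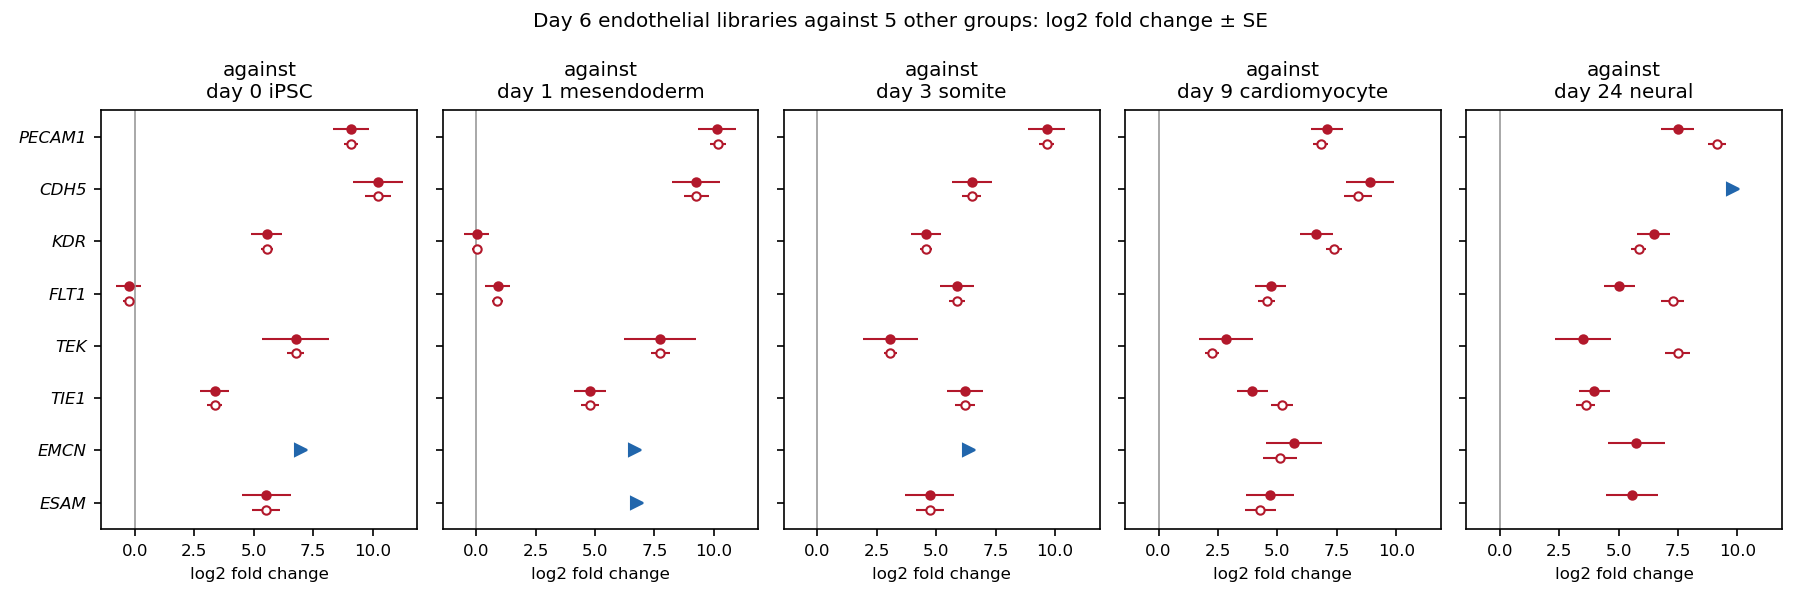
Log2 fold change ± SE of each gene in the day 6 endothelial libraries against 5 other groups, with positive values higher on day 6. Filled points are from all 21 clone 8 libraries and open points from the 19 without the 2 that stand apart; blue triangles are lower bounds against groups with no count, and the open point is left out where the remaining libraries have no count. FLT1 against day 0 (-0.27) and KDR against day 1 (0.02) are the points at the zero line.

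Against the other lineages the day 6 cells stood apart in nearly all 8 genes. Against day 9, 7 of 8 were higher (14.3% of all genes). CDH5 was at 0.45, 0 and 0 TPM in the libraries labelled cardiomyocyte replicates 1, 2 and 3 (8.90 ± 1.00, adjusted p = 1.91e-05) and PECAM1 at 1.65, 1.74 and 1.89 TPM (7.08 ± 0.67, adjusted p = 2.09e-06). KDR was at 0.35, 3.01 and 0.84 TPM (6.63 ± 0.69), FLT1 at 1.16, 0.67 and 1.15 TPM (4.71 ± 0.66) and TIE1 at 0.97, 3.58 and 0.51 TPM (3.94 ± 0.64). EMCN (5.69 ± 1.18) and ESAM (4.67 ± 1.01) were higher on day 6 as well. Leaving out the 2 libraries that stand apart gave 7.38 ± 0.36 for KDR and 5.18 ± 0.46 for TIE1. Without cardiomyocyte replicate 1 CDH5 had no count left on day 9 and ESAM was 6.49 higher on day 6, and without cardiomyocyte replicate 3 EMCN was 7.14 higher. TEK was the gene that did not pass, at 6.29, 0 and 7.53 TPM (2.83 ± 1.15, adjusted p = 0.0761). Without the 2 libraries that stand apart it was 2.24 ± 0.31 higher on day 6 (adjusted p = 2.27e-06), and all 8 passed as higher (29.5% of all genes).

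Against day 24, 8 of 8 were higher on day 6 (14.3% of all genes). CDH5 had no count in the 3 libraries labelled neural, so day 6 was at least 905-fold higher. PECAM1 was at 2.38, 0.56 and 0.75 TPM in replicates 1, 2 and 3, FLT1 at 1.23, 0.21 and 0 TPM, KDR at 0.16, 3.51 and 2.55 TPM and TIE1 at 0.37, 3.07 and 3.73 TPM. The log2 differences were 7.48 ± 0.69, 5.04 ± 0.67, 6.48 ± 0.69 and 3.97 ± 0.65, with adjusted p between 1.77e-06 and 0.000306. Leaving out the 2 libraries that stand apart gave 9.13 ± 0.39, 7.28 ± 0.49, 5.85 ± 0.32 and 3.61 ± 0.41. The KDR difference was 7.39 without neural replicate 2. EMCN (log2 difference 5.74, adjusted p = 0.00791) and ESAM (5.55, adjusted p = 0.00173) were detected in the library labelled neural replicate 1, at 0.5 and 0.77 TPM, and had no count in the other 2. TEK was at 8.45, 0.16 and 0.88 TPM and higher on day 6 by 3.49 ± 1.18 (adjusted p = 0.0359). The call was lost without any of the day 6 libraries (adjusted p 0.0727 to 0.0765), without neural replicate 2 (0.0824) or neural replicate 3 (0.115). Without the 2 libraries that stand apart the TEK difference was 7.48 ± 0.51 (adjusted p = 2.78e-11). For TEK the library labelled neural replicate 1 (8.45 TPM) lay beside cardiomyocyte replicates 1 and 3 (6.29 and 7.53 TPM), and the library labelled cardiomyocyte replicate 2 (0 TPM) beside neural replicates 2 and 3.

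In the undifferentiated clones and the fibroblasts FLT1 was the abundant member of the 8. It stood at 31.06 to 33.97 TPM in clone 1, 37.11 to 50.65 in clone 2 and 23.91 to 31.27 in clone 3, and at 30.32, 45.8, 19.24 and 24.16 TPM in fibroblast libraries 1 to 4. The mean of clone 2 (43.6 TPM) was the highest FLT1 level of the 11 groups, without overlap with the next, clone 1, although fibroblast library 2 (45.8 TPM) and day 0 replicate 1 (37.72 TPM) lay within its range. Clone 1, day 6, day 0, fibroblasts and clone 3 followed in TPM with overlapping neighbours. In CPM the day 6 libraries (65.5 to 68.8) lay below every library of day 0 (71.1 to 99.2) and of clones 1 to 3. They lay within the CPM range of the fibroblasts (50.6 to 109). The difference between clones 1 to 3 and fibroblasts was 0.02 ± 0.16 (adjusted p = 0.929), but it was 0.53 (adjusted p = 0.000885) against fibroblast libraries 3 and 4 alone, which had 7508792 and 6877298 counts. Against libraries 1 and 2 alone, with 36738189 and 26120236 counts, it was -0.26 (adjusted p = 0.0695).

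Of the 6 genes tested between the clones and fibroblasts, 2 were higher in the clones (38.6% of all genes) and 1 lower (35.9% of all genes). The share that was higher was near that of all genes, and the share that was lower was below it. TIE1 was at 0.46 to 1.85 TPM over the 11 clone libraries and at 0, 0.05, 0 and 0 TPM in the fibroblasts, with a ratio of summed CPM of 65.7 (95% counting interval 18.1 to 543, adjusted p = 8.03e-06). KDR was at 0.27 to 3.33 TPM in the clones and at 0, 0.57, 0.06 and 0.12 TPM in fibroblasts (2.62 ± 0.73, adjusted p = 0.00366). Without fibroblast library 2 the KDR difference was 5.47, and TIE1 had no count left in the fibroblasts. PECAM1 was lower in the clones, by -4.65 ± 0.92 (adjusted p = 0.000191), at 5.53, 5.78, 6.34 and 3.35 TPM in fibroblasts and at most 1.37 TPM in the clones. Without that highest clone library, clone 1 replicate 2, the difference was -7.09. Fibroblasts had the second highest PECAM1 level of the 11 groups, 54.1 times below day 6. CDH5, the junction cadherin, was at 0 in 3 of the 4 fibroblast libraries and at 0.26 TPM in the other, and CDH5 and EMCN were too low to be tested in this set.

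The order of the 11 groups put day 6 highest for every gene but FLT1. The next group was day 3 for CDH5, TEK and ESAM, day 0 for TIE1, fibroblasts for PECAM1, day 9 for EMCN and day 1 for KDR, and day 6 overlapped the next group for KDR alone among these 7 genes. Below day 6, days 1, 2 and 3 did not overlap their neighbours for KDR, while the 7 lower groups, from day 0 to fibroblasts, each overlapped the next. For TEK, TIE1, CDH5, EMCN and ESAM nearly all lower neighbours overlapped, the exception being fibroblasts, which were below day 3 for TIE1.

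The ligands of these receptors changed in part. Of 7 tested VEGF and angiopoietin genes, 3 rose between day 0 and day 6 (11.6% of all genes) and 0 fell (7.76%). ANGPT2, which encodes the context-dependent Tie2 ligand released by endothelial cells, stood at 35.1 ± 6.99 TPM on day 6 against 0.427 ± 0.22 (SD, n = 3; 6.06 ± 1.13, adjusted p = 0.00114). PGF, a ligand of FLT1, stood at 12.3 ± 2.22 against 1.32 ± 0.563 TPM (3.24 ± 0.80, adjusted p = 0.00865), and ANGPT4 at 1.13 ± 0.245 against 0.0267 ± 0.0231 TPM. VEGFA, at 9.65 ± 1.31 against 7.62 ± 1.92 TPM, VEGFB, VEGFC and ANGPT1 did not pass. Between day 3 and day 6 VEGFA fell by 1.97 on the log2 scale, from 35 ± 7.8 TPM (adjusted p = 0.00609), while VEGFC rose from 1.94 ± 0.488 to 16.9 ± 1.19 TPM (adjusted p = 0.000244). Fibroblasts held the highest VEGFA level of the 11 groups, 303 ± 38.1 TPM (SD, n = 4).

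Other endothelial receptors and co-receptors rose in 14 of 18 tested cases between day 0 and day 6 (11.6% of all genes) and none fell (7.76%). Their median was 3.02 (0.03 over all genes). Here 16 rose (24.3% of all genes) and none fell (20.8%) without the 2 libraries that stand apart. CD93, a C-type lectin-like receptor of endothelial cells, stood at 114 ± 17.2 against 0.13 ± 0.13 TPM (9.76 ± 1.04, adjusted p = 1.3e-05). STAB1, a scavenger receptor of sinusoidal endothelium, stood at 20.3 ± 7.02 against 0.27 ± 0.0721 TPM. ROBO4, an endothelial receptor of the Robo family, was at 3.38 ± 1.08 TPM on day 6 and at 0 in all 3 day 0 libraries. The VEGF co-receptor NRP1 followed KDR on day 1, at 77.4 ± 27.3 TPM against 4.12 ± 0.58 on day 0, and stood at 26.8 ± 2.98 TPM on day 6. In the comparison of day 6 with day 9, 12 of 18 genes of this list were higher and none lower (12.7% of all genes), and with day 24, 11 were higher and none lower (14.2% of all genes). When the 2 libraries that stand apart were left out, 15 were higher (29.5% of all genes) and 1 lower (24.2% of all genes) against day 9, and 14 were higher (31.6% of all genes) and 2 lower (27% of all genes) against day 24. NRP1 was the lower gene against day 9, and the Notch receptor gene NOTCH1 and the sphingosine-1-phosphate receptor gene S1PR1 were lower against day 24.

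Among other surface and junction genes, 11 of 23 rose (11.6% of all genes) and 3 fell (7.76%) between day 0 and day 6, with a median of 2.37. Without the 2 libraries that stand apart 15 rose (24.3% of all genes) and 3 fell (20.8%). DLL4, the Notch ligand of arterial and tip cells, stood at 40.4 ± 11.7 against 0.07 ± 0.07 TPM (8.95 ± 1.25, adjusted p = 0.000156). SELE (E-selectin) stood at 2.15 ± 0.357 against 0.0533 ± 0.0462 TPM and PLVAP, a protein of fenestral diaphragms, at 884 ± 31.3 against 29 ± 4.26 TPM (4.96 ± 1.39, adjusted p = 0.018). PLVAP had also been at 136 ± 15.2 TPM on day 2. The 3 genes that fell were CAV1 (-3.15 ± 0.67, adjusted p = 0.00318), the main protein of caveolae, and the tight junction genes F11R (-1.90 ± 0.46) and OCLN (-1.78 ± 0.40), which epithelial cells also use. CLDN5, the claudin of endothelial tight junctions, stood at 50.2 ± 18.8 against 2.31 ± 0.485 TPM. Against day 9, 15 of 23 were higher on day 6 (14.3% of all genes) and 2 lower (12.7%), JAM2 and VCAM1. Against day 24, 16 were higher (14.3%) and 3 lower (14.2%), JAM2, VCAM1 and MCAM. Without the 2 libraries that stand apart, 17 were higher (29.5%) and 2 lower (24.2%) against day 9. The 2 lower genes were VCAM1 and CTNNB1 (adjusted p = 1.1e-07), while JAM2 did not pass (adjusted p = 0.104). In that fit 18 were higher (31.6%) and 3 lower (27%) against day 24. The 3 lower genes were JAM2, MCAM and AFDN (adjusted p = 7.43e-05), and VCAM1 turned higher (2.65).

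Of 20 endothelial and blood transcription factor genes, 13 rose from day 0 to day 6 (11.6% of all genes) and 0 fell (7.76%), with a median of 3.45. Without the 2 libraries that stand apart 14 rose (24.3% of all genes) and 0 fell (20.8%). FLI1, an ETS factor, stood at 55.1 ± 12.6 against 0.293 ± 0.361 TPM (7.68 ± 1.64, adjusted p = 0.00325). NR2F2, which is known from venous endothelium and also from mesenchyme, stood at 140 ± 35.5 against 1.14 ± 0.495 TPM (7.01 ± 2.01, adjusted p = 0.0208). SOX7 stood at 4.99 ± 3.14 TPM and was at 0 in all 3 day 0 libraries. ETV2, the ETS factor that opens the endothelial programme in the embryo, was highest on day 2 (8.88 ± 2.08 TPM) and stood at 5.92 ± 1.51 TPM on day 6 and 0.28 ± 0.214 on day 0. SOX17 (21 ± 6.44 against 21.4 ± 7.81 TPM, adjusted p = 0.999) and HHEX (adjusted p = 0.93) did not pass. Against day 9, 9 of 20 were higher on day 6 (14.3% of all genes) and 2 lower (12.7%). Against day 24, 11 were higher (14.3%) and 2 lower (14.2%). HEY2 and PROX1 were the lower genes in both comparisons. Without the 2 libraries that stand apart, 16 were higher and 3 lower against day 9 (29.5% and 24.2% of all genes). The same counts held against day 24 (31.6% and 27%).

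**Figure D4:**
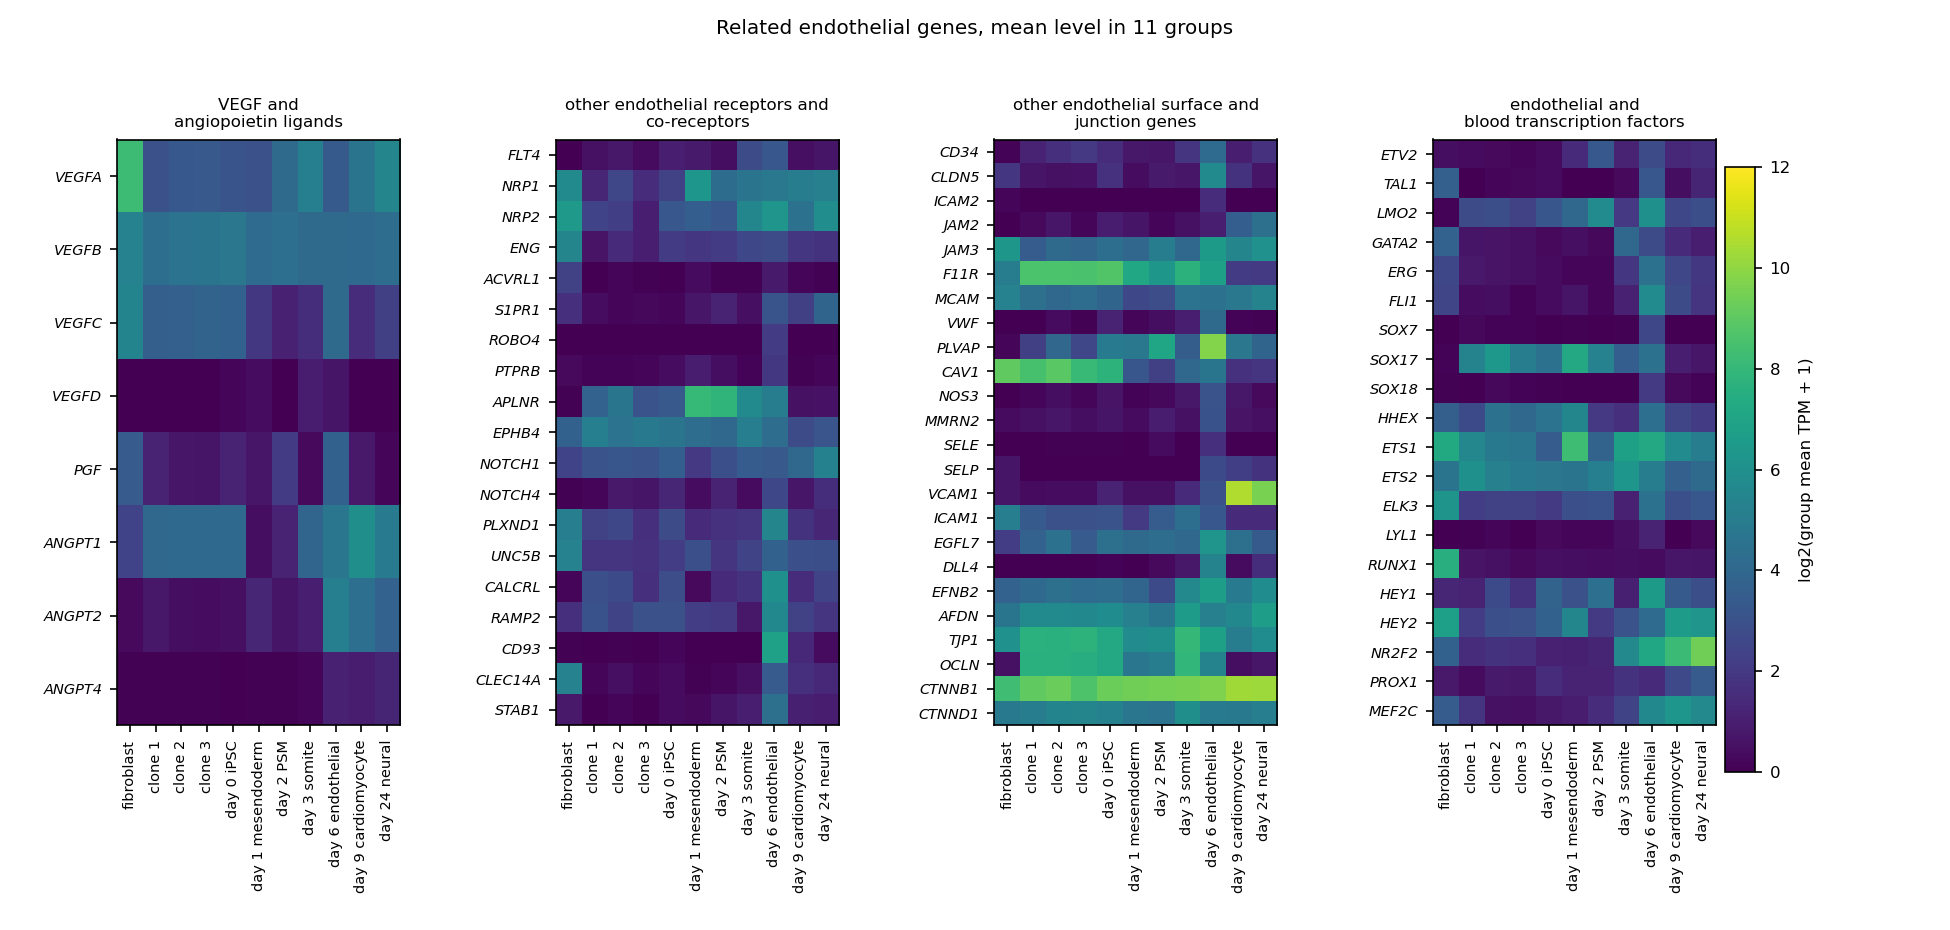
Mean level in each of the 11 groups, as log2(group mean TPM + 1), of the ligand, receptor, surface and transcription factor genes set beside the 8 members. Each column is a group and brighter colours are higher; CD93, PLVAP and DLL4 are bright in the day 6 column (114, 884 and 40.4 TPM), while VEGFA is brightest in fibroblasts (303 TPM).

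Markers of other cell types were measured beside these lists. Over all genes 11.6% rose and 7.76% fell between day 0 and day 6, and without the 2 libraries that stand apart 24.3% rose and 20.8% fell. Of 9 mural and smooth muscle markers 2 rose between day 0 and day 6, RGS5 (4.43 ± 1.40, adjusted p = 0.0347) and PDGFRB (3.51 ± 0.77, adjusted p = 0.00398), and none fell. In the fit without the 2 libraries that stand apart 2 rose and 2 fell, TAGLN and CNN1, both of the smooth muscle contractile apparatus, and the summed level of the 9 genes was 89.82 to 123.98 TPM on day 6 and 224.14 to 267.79 on day 0. Of 9 fibroblast markers 2 rose, DCN (6.22 ± 1.45, adjusted p = 0.00582) and PDGFRB. Without the 2 libraries that stand apart, 7 of the 9 fibroblast markers rose and 6 of the 8 epithelial markers fell. In that fit 7 of 11 neural progenitor markers rose and 3 fell, and 4 of 12 cardiomyocyte markers rose and 2 fell. The mural and cardiomyocyte counts and the neural markers that fell were near the shares of all genes in that fit. Of 12 early mesoderm genes 4 rose, among them HAND1 (7.13 ± 1.61), PDGFRA (4.77 ± 0.72) and FOXF1 (3.95 ± 0.87), and 3 fell, EOMES by the widest margin (-6.15 ± 1.81, adjusted p = 0.024). Without the 2 libraries that stand apart 4 rose and 3 fell as well, near the shares of all genes in that fit. Of 7 tested pluripotency markers 5 fell, with POU5F1 at 1.59 ± 1.26 against 717 ± 69.9 TPM and NANOG at 0.323 ± 0.56 against 68.8 ± 0.43 TPM, and UTF1 was at 0 in all 3 day 6 libraries. Epithelial genes fell in 2 of 8 cases, CDH1 (-2.37 ± 0.50, adjusted p = 0.003) and ESRP1 (-0.98 ± 0.24, adjusted p = 0.0079), and CDH1 still stood at 122 ± 5.49 TPM on day 6. Of 12 cardiomyocyte markers 0 passed by edgeR, and of 11 neural progenitor markers OTX2 fell (-3.81 ± 0.79). Of 4 tested blood cell markers PTPRC fell. The part of these cells in the levels of the 8 genes was not tested.

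The profile of KDR was searched separately, with all 8 members left out of the candidates. FLT1 was less like the mean of the other members than KDR was (correlation 0.095 against 0.519). The genes most like KDR over the 36 libraries were ITLN2, PDP2, the chemokine receptor gene CXCR4, TMEM132C and FAM110D, with r from 0.886 down to 0.814. ITLN2 stood at 18.2 ± 7.92 TPM on day 1 and 32.5 ± 9.72 on day 6. With 11 group means in place of 36 libraries, 3 of these 5 genes stayed in the list.

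In the RefSeq annotation of Sscrofa11.1, PECAM1 lies on chromosome 12 (14667643 to 14723296) and overlaps the non-coding RNA gene LOC110255989. KDR (41809116 to 41856379) and EMCN (120174091 to 120227971) lie on chromosome 8, and CDH5 (27108560 to 27142145) and TIE1 (167919662 to 167947253) on chromosome 6. FLT1 lies on chromosome 11 (5620698 to 5797095), ESAM on chromosome 9 (51983019 to 51992415) and TEK on chromosome 1 (195938177 to 196052294), where it overlaps the protein-coding gene LOC102166359. No source used here gives the strand setting of the counting, and overlapping genes could therefore share reads. The TIE1 counts were not whole in 25 of the 33 libraries with any, since part of its reads was assigned by estimation, and TIE1 levels are less certain for that reason.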

How the data were processed

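Total RNA came from a column kit (RNeasy Plus Mini) and was made into LM-seq libraries, per the labels. Sscrofa11.1 is the build, and RSEM 1.2.3, Bowtie 1.2.3 and bcl2fastq are the tools, named per the submitters' processing notes. The authors deposited expected counts per gene and library, and a table of TPM. Each table held 20683 genes in 36 libraries, 2097 of them at 0 throughout, and 20622 symbols matched RefSeq. Of 42 pairs of libraries within groups 0 were identical.

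Expected counts were rounded and tested in R 4.3.3 with edgeR 4.0.16 (quasi-likelihood, TMM scaling, filterByExpr with a minimum count of 10) in 2 models, of 21 clone 8 libraries (14248 genes) and of 15 fibroblast and clone libraries (14660 genes). Each p-value was adjusted by the Benjamini-Hochberg method across the genes of its model, and the SE is the log2 change divided by the square root of F. For a fold bound, a group without counts was given 3 counts in total. Depth ran from 1845333 to 69879325 counts. The tests were tried on simulated counts.

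The members and gene lists were chosen with earlier results of these data known. Named are all members, per list up to 3 genes with the widest change in the commoner direction and 1 in the other for day 6 against day 0, and the 5 most similar genes. Other genes (NRP1, VEGFA, VEGFB, VEGFC, ANGPT1, CLDN5, F11R, OCLN, ETV2, SOX17, HHEX, GATA1, HBZ, LIN28A, TAGLN, CNN1, NOTCH1, S1PR1 and values on other days) were chosen after their values were seen. So were ITGA2B, MYB, CD68, SPI1, JAM2, VCAM1, MCAM, CTNNB1, AFDN, HEY2, PROX1, COL3A1, KRT8 and KRT18. Alternatives were DESeq2 1.42.0, RLE scaling, no filter, limma 3.58.1 on log2(TPM + 1) and log2(TPM + 0.1), fewer groups in the fit, a replicate block, each library left out, and the fit without the 2 libraries that stand apart. Promoter motifs and sequences were not analysed here.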

Additional observations from a re-analysis of the deposited data

Results flagged for a closer look

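In the fibroblasts, 4 of the genes were at 0 in 3 of the 4 libraries and detected in the other, which made that library the farthest from the rest by Dixon's criterion whatever its level. The values were 0.26 TPM (3 counts) for CDH5 in library 3 and, in library 2, 0.3 TPM (15 counts) for TEK, 0.05 TPM (2 counts) for TIE1 and 0.07 TPM (2 counts) for EMCN. For CDH5, TIE1 and EMCN these counts do not exceed the 3 counts that a count of 0 allows. All 4 values are far below the day 6 levels. Of 22 group and gene combinations, 4 were singled out in this way, and the usual chance rate of about 1 in 20 does not apply to values that are mostly 0.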

How the results depend on the processing

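Results for single members were recomputed in 1082 cases. Of these, 1013 kept their direction and side of the threshold, 23 lost the call, 28 gained it and 18 changed sign. The changes of sign were for KDR on day 6 against day 1 (-0.013 under DESeq2 and RLE scaling, -0.0087 without a filter, -0.0023 with only the groups compared, -0.088 to 0.16 over left-out libraries) and FLT1 on day 6 against day 0 (0.071 and 0.074 in the limma fits). FLT1 in clones against fibroblasts gave -0.0073 under DESeq2, -0.0064 with RLE scaling, -0.12 to 0.31 over left-out libraries and -0.26 with fibroblast libraries 1 and 2. PECAM1 on day 3 against day 2 gave 0.019 and 0.033 in the limma fits, CDH5 on day 1 against day 0 -0.63 to 1.79 and TIE1 on day 2 against day 1 -0.25 to 0.73 over left-out libraries. The causes were not tested. Members lower on day 1 than day 0 numbered 1 in limma on log2(TPM + 1), 2 with only the groups compared and 3 without the 2 libraries that stand apart. Members higher on day 3 than day 2 numbered 1 with only the groups compared, 1 in limma on log2(TPM + 0.1) and 2 without these 2 libraries. On day 2 against day 1, 1 was higher without these 2 libraries, and the 2 lower ones became 1 in limma on log2(TPM + 0.1) and 0 to 2 over left-out libraries. On day 3 against day 2, 1 was lower in limma on log2(TPM + 0.1). Members higher in clones than fibroblasts numbered 2 to 4 over left-out libraries, 4 without fibroblast library 2.

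Counts over all genes moved more. For day 6 against days 0, 1, 2, 3, 9 and 24 they were 2752, 3717, 2397, 2188, 3844 and 4055. Without the 2 libraries that stand apart they were 6532, 7225, 6022, 5812, 7778 and 8490, and with only the groups compared 7704, 6249, 5701, 5882, 1469 and 1231. Over left-out libraries they were 1789 to 1970 for day 0, 1487 to 1737 for day 2, 1344 to 1547 for day 3, 2499 to 5202 for day 9 and 2533 to 6493 for day 24. For day 1 against day 0, day 2 against day 1 and day 3 against day 2 the counts were 1808, 1053 and 3374. They were 5415, 3460 and 7011 without the 2 libraries, 4752, 2165 and 6421 with only the groups compared, and 996 to 1595, 526 to 693 and 2212 to 2727 over left-out libraries. DESeq2 gave 1695 for day 2 against day 1. In CPM, the log2 ratio of the day 6 mean was 5.21 for PECAM1 over fibroblasts (5.76 in TPM) and -1.11 for FLT1 over clone 2 (-0.42 in TPM), and 3 of the 5 genes most like KDR were shared between libraries and group means. RLE scaling put the median of all genes at -0.15 for day 6 against days 9 and 24. In no comparison did every same-numbered pair of libraries correlate over 0.1 in its deviations from the group means (the lowest pair lay between -0.11 and 0.088), so the numbers were not taken as pairs. All 6 libraries correlated best with their own number in day 6 against day 0, a hint from the data and not from the design, and 0 to 5 of 6 did in the other comparisons within clone 8. The replicate block gave 2712 genes for day 6 against day 0 and called TEK against day 9 (adjusted p = 0.0481). It changed no other member call.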
